A study of Mus musculus with 115 samples.

Results

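The nuclear pore and transport genes examined here are 32 autosomal genes that encode nucleoporins and the factors that carry cargo through the pore. They were chosen by name, for what their products do, with earlier results of these data known. The question was whether Nup35 departs from the others in its spread and in its relation to Mki67, a gene transcribed in dividing cells. Of the 32 genes, 31 were matched by symbol to the 45699 genes of the expression table. Nup62 was not matched and was not analysed here.

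RNA was sequenced from the prostates of male (TRAMP x WSB) F2 mice, by the labels 1 library a mouse, all in 1 group described as prostate tumor tissue. The numbers of 2 libraries are nearly alike, and these held different values (2.87 and 2.13 TPM of Nup35). Every mouse was labelled positive for the TRAMP transgene, in which the probasin promoter drives the SV40 T antigen in the prostate epithelium, so no library is labelled as a prostate without the oncogene. The F2 mice descend from C57BL/6 TRAMP females and males of the wild-derived inbred strain WSB/EiJ, and they carry a mixture of both genomes. They were kept to a set age or to a humane endpoint, and the age, genotype and tumor burden of each mouse were not used here. For prostates under 1 g the RNA came from the ventral prostate.

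The table gives TPM, a relative abundance that sums to the same total in every library. Sequencing depth is lost in this unit, and how many reads lie behind a value is unknown, although the labels give at least 43000000 read pairs a library. The libraries separated on the first principal component into 79 and 36, called the larger and the smaller part, and all relations between genes were computed within a part. The parts were drawn from expression itself, so their values are given side by side and were not tested against each other. The summed level of 6 neuroendocrine markers was 0.12 to 20.6 TPM (median 0.48) in the larger part, with the median of each of the 6 under 1 TPM, and 0.56 to 690 TPM (median 175) in the smaller part. The summed level of 3 markers of basal epithelial cells was 2.64 to 40.4 TPM (median 15.8) in the larger part, where the median of each was at or above 1 TPM, and 0.03 to 9.8 TPM (median 0.265) in the smaller part, where the median of each of the 3 was under 1 TPM. The summed level of 12 proliferation markers was 5.2 to 230.6 TPM in the larger and 325 to 1219 TPM in the smaller part. For 6 markers of smooth muscle and stroma it was 156 to 5153 and 2.23 to 1427 TPM, for 5 of leukocytes 13.9 to 1105 and 16.4 to 618 TPM, for 3 of endothelium 1.43 to 63.2 and 1.89 to 44.6 TPM, and for 4 of seminal vesicle 1.81 to 157044 and 1.45 to 241 TPM. The part of these markers in the results below was not tested. The tissue was sequenced in bulk, so fewer cells of a type and less RNA per cell cannot be told apart.

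The nuclear pore complex is a large channel through the nuclear envelope, built from many copies of each nucleoporin. An inner ring lines the membrane pore between a pair of outer rings made of the Y complex, transmembrane nucleoporins hold the structure in the envelope, and nucleoporins rich in phenylalanine-glycine repeats fill the channel. Importins and exportins ferry cargo through it, with direction set by the small GTPase Ran, and because the envelope breaks down at each division, dividing cells take pores apart and build them anew.

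A gene was called detected where 50% of the libraries or more reached 1 TPM. All 31 matched genes were detected, and 27.8% of all genes in the table were. None of the 31 (0) was listed at 0 in any library. Over the 79 and 36 libraries together the means ran from 1.61 ± 1.17 TPM (SD over libraries, here and below) for Pom121, a transmembrane nucleoporin, to 47.2 ± 10.1 TPM for Sec13, a Y complex subunit that also coats transport vesicles. After Sec13 came Kpnb1 (importin beta) at 39.8 ± 17.6 TPM and Xpo1 (the main exportin) at 37.9 ± 28.9 TPM. After Pom121, the lowest were Nup35 at 4.46 ± 4.00 TPM and Nup133 at 4.91 ± 3.45 TPM. This order differs by part. Within the smaller part Xpo1 (77.2 ± 15.7 TPM), Nup85 (61.4 ± 10.3), Kpnb1 (61.4 ± 11.5) and Kpna2 (51.4 ± 31.2) had higher means than Sec13 (47.5 ± 11.1), and in the larger part Ndc1 (2.23 ± 1.14) lay below Nup35 (2.38 ± 1.68). Of the 31 genes, 30 had a higher median in the smaller part than in the larger part, as did 58.4% of all tested genes, and the ratio of the medians had a median of 2.68 over the 31 genes beside 1.203 over all 14321 tested genes with a median above 0 in the larger part. It was highest for Ndc1 (6.65), Nup107 (5.02) and Nup155 (4.92), and lowest for Sec13 (0.978), Nup98 (1.03) and Rae1 (1.18). After median-of-ratios scaling, which sets the typical gene at the same level in each library, 27 of the 31 genes had the higher median in the smaller part, as did 45.1% of all genes, and Nup98, Rae1 and Ranbp2 joined Sec13 below 1. The ratio then had a median of 1.97 over the 31 genes and 0.900 over all genes.

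**Figure D1:**
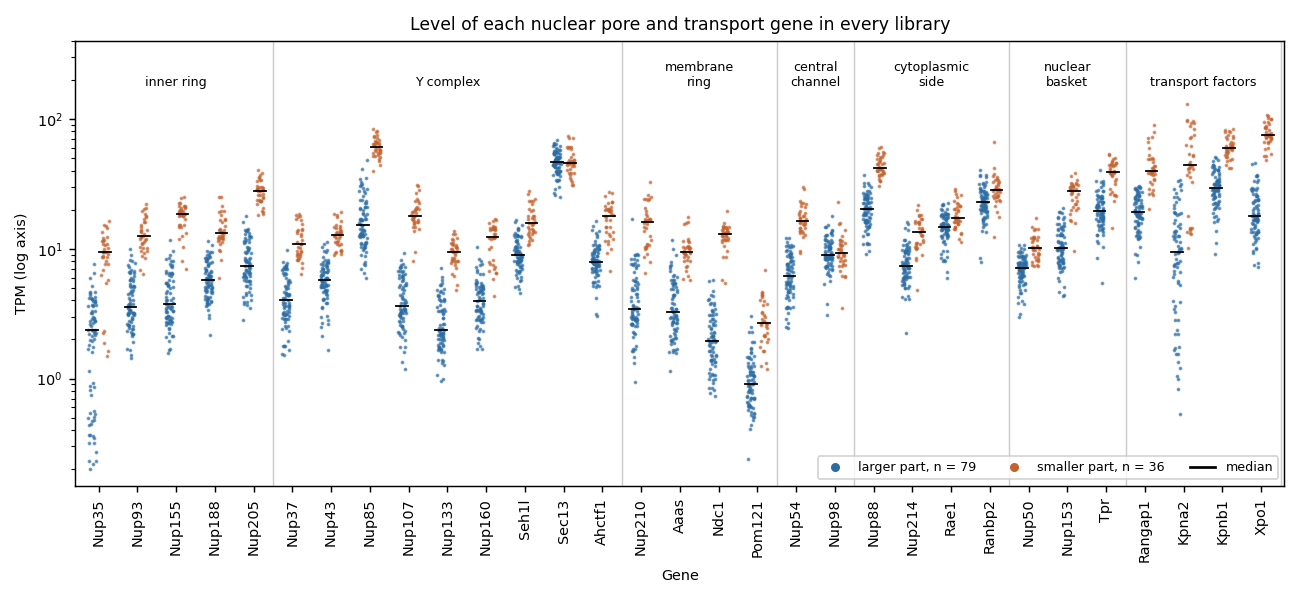
TPM on a log axis of the 31 genes in every library, grouped by place in the pore; points are libraries of the larger part (n = 79) and of the smaller part (n = 36), and bars are medians. Nup35 and Kpna2 reach down to 0.20 and 0.53 TPM in the larger part, well below the bulk of their own libraries.

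Nup35 belongs to the inner ring, which it helps anchor to the membrane. The gene lies at chr2:80617236-80658906 on the plus strand of GRCm38, where its 3366 exon bases include 131 that Dusp19 also uses. The library kit was not described as keeping the strand, so shared bases make a level less certain. Its transcript Nup35-201, of 9 exons and 1559 bases, has a near-identical copy elsewhere in the annotation. Gm4353-201, of 2 exons and 1559 bases, is the transcript of Gm4353 at chr7:116082863-116084635 on the minus strand, a gene annotated as protein coding that lies within 1110004F10Rik and 1700003G18Rik.

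The transcripts aligned over 1547 bases without a gap and with 6 mismatches, an identity of 99.6%. Counted from 1 at the 5′ end of Nup35-201, with the base of Nup35 first, 5 of the mismatches fall in the UTR (T1198C, C1305T, C1346T, A1507T and A1533T). The 978 coding bases hold only 1 mismatch, A467G, in codon 130. The stretch around it is shown because it is all that tells the coding sequences apart. It lies at chr2:80646439-80652869 in Nup35, where it spans an intron, and at chr7:116083935-116083975 in Gm4353, and the capital marks the base that differs.
Nup35-201: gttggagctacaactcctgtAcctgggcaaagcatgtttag
Gm4353-201: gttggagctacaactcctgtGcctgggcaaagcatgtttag
Of the 1452 windows in Nup35-201 that are as long as a read after trimming, 1023 (70.5%) are also found in Gm4353-201 without a mismatch. A read from such a window cannot be placed by its reference sequence alone. The windows stand for single reads, and only these transcripts were compared. Whether the mate of a read or a difference between the strains places some of them was not examined.

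Kpna2, which encodes an importin alpha that binds nuclear localization signals, was the other gene of the 31 with a copy of this kind. Gm10184-201, a transcript of 1 exon at chr17:89908462-89910449, aligned to Kpna2-201 over 1968 bases with 2 mismatches (99.9% identity), both in the coding sequence (A902G and C947T, counted in Kpna2-201). The stretches at chr11:106991283-106991323 and chr17:89909601-89909641 hold the first of these.
Kpna2-201: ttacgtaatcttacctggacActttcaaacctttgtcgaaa
Gm10184-201: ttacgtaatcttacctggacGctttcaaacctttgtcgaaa
Of the 1947 windows of Kpna2-201, 1708 (87.7%) are found unchanged in Gm10184-201, with the same limits as for Nup35. A copy at 95% identity or more over at least 80% of the transcript was thus found for 2 of the 31 genes (6.45%), and for 939 of 14561 tested genes with a transcript (6.45%), so such a copy is no more common here than elsewhere.

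In the larger part, Nup35 ran from 0.20 to 7.64 TPM with a median of 2.35. Its level separated into a higher piece of 54 libraries, from 1.15 to 7.64 TPM (median 2.95), and a lower piece of 25 libraries, from 0.20 to 0.92 TPM (median 0.45). No other gene of the 31 separated in the larger part. In the smaller part Nup35 ran from 1.49 to 16.2 TPM with a median of 9.41. There, 5 libraries lay between 1.49 and 2.31 TPM and the other 31 between 5.4 and 16.2 TPM, and with 5 libraries the low side was under the minimum of 6 for a separate piece.

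Where Nup35 was low, Gm4353 was high. In the lower piece of the larger part, Gm4353 ran from 1.69 to 8.72 TPM (median 4.35), and in the higher piece from 0 to 5.78 TPM (median 2.05). In the 5 low libraries of the smaller part it ran from 11.9 to 17.5 TPM (median 14.6), above every one of the other 31, which ran from 0 to 9.68 TPM (median 5.05). Gm4353 was listed at 0 in 8 libraries, and in these Nup35 ran from 2.91 to 14.4 TPM. The ranges of the pieces thus overlap for Gm4353 in the larger part, and those of the low and other libraries do not in the smaller part. The sum of Nup35 and Gm4353 was similar in both pieces, at 1.91 to 9.54 TPM (median 4.79) in the lower and 2.47 to 9.84 TPM (median 5.01) in the higher piece.

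The share of Nup35 in that sum fell in 3 ranges with nothing between them. It was at most 16.6% in 31 libraries (median 9.27%), between 40.3% and 74.8% in 71 (median 59.6%) and at least 97.4% in 13 (median 100%). The larger part held 26, 47 and 6 of these and the smaller part 5, 24 and 7. All 25 libraries of the lower piece were in the first range, and 1 library of the higher piece was too, with 1.15 TPM of Nup35 and 5.78 TPM of Gm4353. Kpna2 and Gm10184 showed 3 ranges as well. The share of Kpna2 was at most 19.1% in 29 libraries (median 11.3%), between 35.3% and 64.7% in 63 (median 49.8%) and at least 97.6% in 23 (median 100%). In all, 10 libraries were in the lowest range of both. They are 34.5% of the 29 that were low for Kpna2, where 26.96% of all libraries were low for Nup35, and 32.3% of the 31 that were low for Nup35, where 25.2% of all were low for Kpna2.

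**Figure D2:**
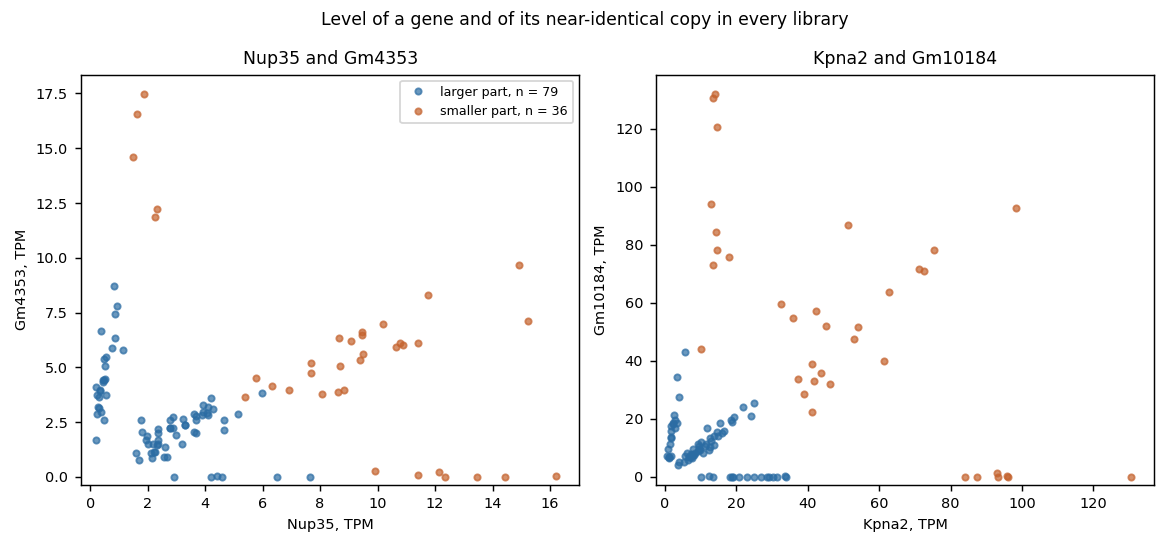
TPM of Nup35 against Gm4353 (left) and of Kpna2 against Gm10184 (right) in every library of the larger part (n = 79) and the smaller part (n = 36). In both plots the libraries fall along 3 arms, with the copy at or near 0, with both at similar levels, or with the gene low and the copy high.

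The spread of each gene was taken as the SD of log2(TPM + 1) over libraries, and compared with that of Nup35 by a permutation form of the Pitman-Morgan test, two-sided and adjusted over all genes by the Benjamini-Hochberg method. In the larger part the SD of Nup35 was 0.780, while the other 30 genes had a median of 0.461. It was larger than in 29 of the 30, each with an adjusted p under 0.05, from Sec13 (SD 0.307, adjusted p = 1.65e-05) and Pom121 (0.325) and Nup50 (0.330), a basket protein, up to Nup85 (0.612, adjusted p = 0.0297) and Nup210 (0.614, adjusted p = 0.0373). The place of Pom121 rests on its low level (median 0.91 TPM), where the added 1 narrows an SD. The SD of its TPM over their mean was 0.494, where Sec13 had 0.205 and Nup50 0.243. The exception was Kpna2, with an SD of 1.19 (adjusted p = 0.000309), a difference that was not called with a pseudocount of 0.1 TPM or after TPM were rescaled without the 20 most abundant genes. Of all genes tested, 78.8% had a smaller SD than Nup35 by the same test, so a wide spread relative to most genes is not particular to a comparison with the pore. Within the higher piece the SD of Nup35 was 0.409, and within the lower piece it was 0.203. All libraries of the lower piece lie under 1 TPM, where the added 1 narrows an SD. These values therefore do not show that the relative spread was smaller in the lower piece.

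In the smaller part the SD of Nup35 was 0.749 and the median of the others was 0.377. It was larger than in 28 of the 30, where 52.8% of all genes were called, and the difference from Nup210 (SD 0.515, adjusted p = 0.0508) and from Kpna2 (1.02, adjusted p = 0.0807) missed the threshold. Nup85, an outer-ring scaffold subunit, had the smallest SD there, at 0.241.

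Summed with their copies, both genes had a smaller spread. This sum was chosen after the data were seen. Nup35 + Gm4353 had an SD of 0.403 in the larger part, larger than 2 of the 30 genes and smaller than 13 (13.5% of all genes had a smaller and 37.3% a larger SD by the test), and it no longer separated. In the smaller part its SD was 0.303, with 0 genes smaller and 4 larger by the test, namely Nup160, Nup210, Rangap1 and Kpna2, where 0.759% of all genes were called smaller and 61.7% larger. The SD of Kpna2 + Gm10184 was 0.637 in the larger part and 0.394 in the smaller part, where Kpna2 alone had 1.19 and 1.02.

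**Figure D3:**
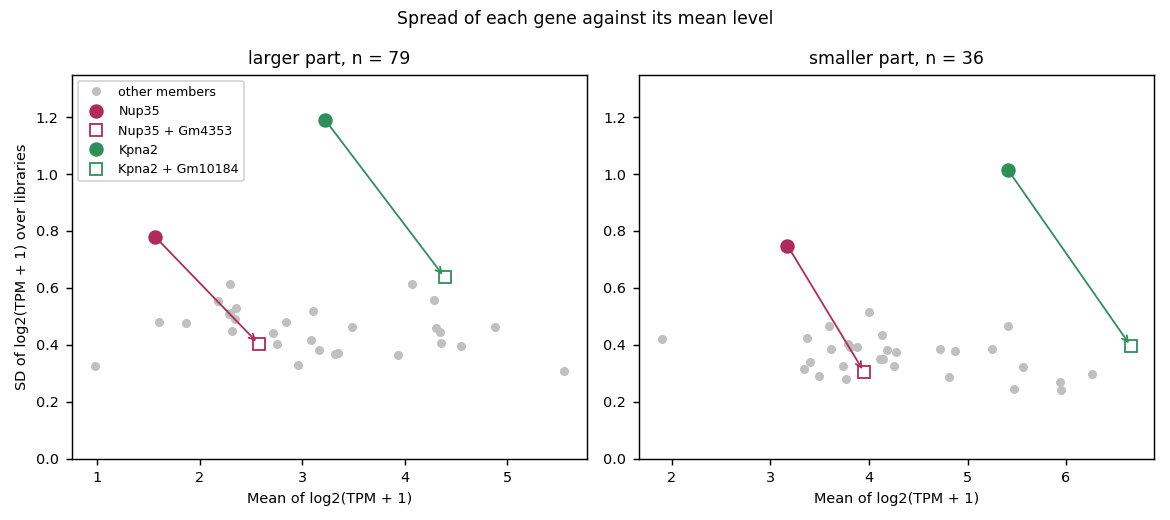
SD of log2(TPM + 1) over libraries against its mean for the 31 genes, in the larger part (n = 79, left) and the smaller part (n = 36, right). Arrows lead from Nup35 (SD 0.780 and 0.749) and Kpna2 (1.19 and 1.02) to their sums with Gm4353 and Gm10184 (open squares), which lie among or near the other genes.

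Mki67 itself ran from 0.39 to 25.7 TPM (median 4.23) in the larger part and from 20 to 144 TPM (median 83.5) in the smaller part. The relation of each gene to it was tested as Pearson's r on log2(TPM + 1) with 100000 permutations, two-sided and adjusted over all genes, which gives a smallest p of 1e-05. A trimmed r, computed after the 2 libraries whose Mki67 level lay farthest from its median were removed, is given with it. In the larger part 72.8% of all genes tested were called positive and 1.4% negative, and the median r over all genes was 0.433, so most transcripts moved with Mki67 there. The other 30 pore and transport genes were all called positive in TPM, with a median r of 0.727 and 0 negative, and 20 and 23 of them were under the 2 other scalings described further on. Of the cell type markers tested in the same libraries, 4 of 4 of leukocytes (median r 0.562) and 5 of 6 of smooth muscle and stroma (0.253) were also positive, as were 1 of 3 basal, 0 of 6 neuroendocrine, 0 of 3 endothelial and 0 of 4 seminal vesicle markers. The 12 proliferation markers were all positive, with r from 0.937 to 0.974. How far other cell types enter the r of the pore genes was not tested. Of the 8 libraries with Mki67 under 1 TPM, 6 carry consecutive numbers in the labels, all in the higher piece of Nup35. In these Mki67 was 0.39 to 0.93 TPM. Kpna2 lay in each below its 1.54 to 33.9 TPM in the other 73, as did Nup43 below its 2.96 to 11.3 TPM. Nup35 was 1.69 to 2.67 TPM, and Pom121 was 1.45 to 2.28 TPM beside a median of 0.88 TPM in the other 73. Without the 6 libraries, 29 of the 30 genes were called positive (70.4% of all genes, with 1.61% negative). The SD of Nup35 was then still larger than in 29 (81.4% of all genes).

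The remaining inner ring genes are large scaffold proteins. Nup155 had the highest r of the 30, 0.899 (rho = 0.886, permutation p = 1e-05 for each, the smallest the resamples can give), and a trimmed r of 0.887. It ran from 1.57 to 11.7 TPM with a median of 3.76. Nup205 (r = 0.857), Nup93 (0.813) and Nup188 (0.732) followed, so the ring's members other than Nup35 lay between 0.732 and 0.899. Gm14471 and Gm28038 overlap 776 of the 6241 exon bases of Nup188.

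The 9 Y complex genes, which form the outer rings, had a median r of 0.806. Nup133 reached 0.879 (rho = 0.867, permutation p = 1e-05 for each, trimmed r = 0.863), and Nup37 reached 0.876 (rho = 0.860, permutation p = 1e-05 for each, trimmed r = 0.863). Nup85, Nup107 and Nup43 had r of 0.860, 0.857 and 0.806. Lower values came from Seh1l (0.734), Nup160 (0.718) and Ahctf1 (0.540, rho = 0.527, permutation p = 1e-05 for each, trimmed r = 0.491), whose product seeds pores on chromatin after division. Sec13, the most abundant of all, had an r of 0.288 with a permutation p of 0.0100 (adjusted p = 0.0146), a rho of 0.266 with a permutation p of 0.0177, and a trimmed r of 0.309.

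In the membrane ring, Aaas, the soluble partner that Ndc1 anchors, had r = 0.881 (rho = 0.870, permutation p = 1e-05 for each, trimmed r = 0.864). The transmembrane protein Ndc1 had r = 0.863 (rho = 0.854, permutation p = 1e-05 for each, trimmed r = 0.843). Nup210, a lumenal ring protein, had 0.811. Pom121 had the lowest r of the 30, 0.271, with a permutation p of 0.0150 (adjusted p = 0.0214). Its rho was 0.306 with a permutation p of 0.00614, and its trimmed r was 0.172. Pom121 was also the gene with the lowest level, 0.24 to 3.03 TPM (median 0.91) in this part, and Nsun5 overlaps 665 of its 5580 exon bases.

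Among the genes of the channel and the 2 faces of the pore, r was mostly lower. In the channel, Nup54 had 0.807 and Nup98 had 0.453 (rho = 0.487, permutation p = 4e-05 and 1e-05, trimmed r = 0.419). On the cytoplasmic side, which holds the mRNA export platform, Nup88 had 0.676, Nup214 0.563, Rae1 0.562 and Ranbp2, a SUMO ligase that binds Ran, 0.397 (rho = 0.404, permutation p = 0.00028 and 0.00027, trimmed r = 0.379). The nuclear basket genes Nup153, Nup50 and Tpr had 0.723, 0.651 and 0.617. Of the transport factors, Xpo1 had 0.823, Kpnb1 0.716, Kpna2 0.662 and Rangap1, the GTPase activator of Ran, 0.622.

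Nup35 was examined within its pieces, because its level separates. In the higher piece it had r = 0.564 and rho = 0.600 with Mki67 (n = 54, permutation p = 2e-05 for each, adjusted p = 5.77e-05 for r) and a trimmed r of 0.539. Without the library that has a Nup35 share of 16.6%, r was 0.639 (n = 53). In the lower piece of 25 libraries, r was 0.659 with a permutation p of 0.00035 (adjusted p = 0.00184), rho was 0.540 with a permutation p of 0.00631, and the trimmed r was 0.550. Gm4353 alone had an r of 0.659 in the lower and 0.307 in the higher piece. In the lower piece Nup35 was a median of 9.19% of the sum, and how far reads of the copy enter its r was not tested. Within each piece Nup35 thus rose with Mki67 in TPM, a call that neither other scaling kept. So did 68.6% of all genes in the libraries of the higher piece, where 0.958% fell, and 48.5% in those of the lower piece, where 2.37% fell.

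The difference between the r of Nup35 and that of each other gene was tested by permutation and adjusted over all genes. The pieces are cut on the level of Nup35 itself, which narrows its SD from 0.780 to 0.409 in the higher piece, while the median SD of the 30 genes was 0.461 in the larger part and 0.494 in that piece. A narrower range can lower an r, so this comparison bears only on these libraries. In the higher piece 24 of the 30 genes had a higher r than Nup35, and for 8 the difference passed the test, where 2.55% of all genes did. These were the inner ring genes Nup155 (0.917, adjusted p = 0.0110) and Nup205, the Y complex genes Nup37, Nup85, Nup107 and Nup133, and the membrane ring genes Aaas and Ndc1. None of the 30 (0) had a lower r by the test, although Pom121 did with Top2a, with a proliferation index or without the library with a Nup35 share of 16.6%, Sec13 under both other scalings and Ranbp2 under the median-of-ratios one. The count depended on the measure and the libraries. It was 4 with Top2a (2.18% of all genes) and 4 with a proliferation index (1.89%) in place of Mki67, and 3 (1.71%) without the 6 libraries of consecutive numbers, where the r of Nup35 was 0.491 (n = 48, adjusted p = 0.00126 by the permutation test). In the lower piece 16 of the 30 had a higher r, of which 0 passed, where 0 of all 14592 genes tested did. Sec13 was lower there (r = -0.03, adjusted p = 0.0247). That piece has fewer libraries than the higher one.

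Nup35 + Gm4353 could be examined over the whole larger part, since the sum did not separate. Its r with Mki67 was 0.686 and its rho 0.683 (n = 79, permutation p = 1e-05 for each), and the trimmed r was 0.673. That places it between Kpnb1 (0.716) and Nup88 (0.676). By the test, 10 of the 30 genes still had a higher r, where 2.77% of all genes did, namely the 8 above with Nup93 and Xpo1. The other 3 that differed, Sec13, Pom121 and Ranbp2, had a lower r, and the median r over all genes was 0.433. The share of all genes with a lower r is not given, here or in the other comparisons of r. Whether the lower calls are more common among these genes than among all genes therefore cannot be said. For Kpna2 + Gm10184, r was 0.883 and rho 0.871 (permutation p = 1e-05 for each, trimmed r = 0.873), where Kpna2 alone had 0.662 and 0.677 (permutation p = 1e-05 for each, trimmed r = 0.652).

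**Figure D4:**
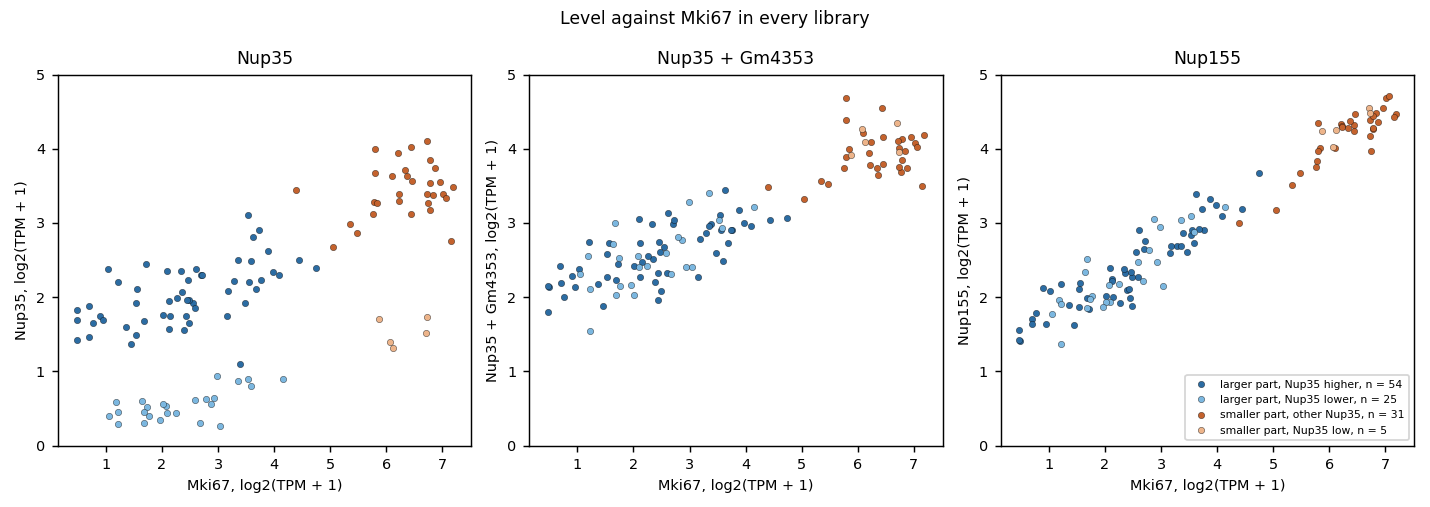
Level of Nup35 (left), Nup35 + Gm4353 (middle) and Nup155 (right) against Mki67 in every library, all as log2(TPM + 1), coloured by part and by the level of Nup35. The 25 and 5 libraries low in Nup35 lie apart on the left and among the others in the middle and on the right.

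Because most transcripts moved with Mki67 in TPM, the same relations were read after other scalings, on which several of them depended. After median-of-ratios scaling the median r over all genes was -0.02, with 22.3% of genes positive and 20.1% negative, and after TPM were rescaled without the 20 most abundant genes it was 0.076, with 28.7% positive and 8.76% negative. Of the 30 genes, 20 were then positive and 2 negative under the first scaling, and 23 positive and 1 negative under the second. Of the 30, the scaffold genes Nup205 (0.862 and 0.832), Nup155 (0.907 and 0.872) and Nup133 (0.871 and 0.849) moved least from their r in TPM, and Ndc1 had 0.832 and 0.812. In the channel and on the cytoplasmic face, Nup98 (-0.21 and 0.027), Nup214 (0.095 and 0.248) and Rae1 (-0.01 and 0.214) were not called under either, nor were Pom121 (-0.16 and -0.01) and Ahctf1 (-0.12 and 0.157). Sec13 was called negative under both (-0.33 and -0.39), and Ranbp2 under the first (-0.39 and -0.09).

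Nup35 kept its wide spread under both scalings, and its association was no longer called under either. Its SD was larger than that of 29 of the 30 genes under each, where 84.1% and 87.7% of all genes were called. In the higher piece its r with Mki67 was 0.219 (adjusted p = 0.210) and 0.266 (adjusted p = 0.127), and 15 and 13 of the 30 genes had a higher r by the test of the difference, where 6.17% and 4.4% of all genes did. In the lower piece its r was 0.391 (adjusted p = 0.145) and 0.488 (adjusted p = 0.0535). Nup35 + Gm4353 stayed associated over the larger part, with r of 0.365 (adjusted p = 0.00358) and 0.508 (adjusted p = 7.74e-05), and 12 and 11 of the 30 genes had a higher r, where 5.53% and 3.26% of all genes did. These adjusted p are from the permutation test over all genes.

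In the smaller part the relation to Mki67 was uneven. Of all genes tested, 23.3% were called positive and 20.9% negative, with a median r of -0.02. Nup160 and Kpna2 separated there and were taken in pieces. The markers of other cell types mostly fell or were not called as Mki67 rose, with 4 of 4 of leukocytes (median r -0.45), 5 of 6 of smooth muscle and stroma (-0.45), 2 of 4 of seminal vesicle, 1 of 3 basal, 1 of 3 endothelial and 1 of 6 neuroendocrine markers negative. Another neuroendocrine marker was positive, as were 8 of the 12 proliferation markers (median r 0.458), and the part of these in the values was not tested. Of the other 28 genes besides Nup35, 15 were called positive and 0 negative, with a median r of 0.414 and a range from -0.27 for Sec13 to 0.881 for Nup155. After median-of-ratios scaling 13 were positive and Sec13 was negative, where 23.2% and 38.7% of all genes were, and after rescaling without the 20 most abundant genes 22 were positive and 0 negative, where 38.2% and 22.2% were. Nup155 (rho = 0.798, permutation p = 1e-05 for each, trimmed r = 0.796) and Ahctf1 (r = 0.854, rho = 0.806, permutation p = 1e-05 for each, trimmed r = 0.835) led. The nuclear basket genes Nup153 (0.793) and Tpr (0.786), with Ndc1 (0.742) and Nup214 (0.723), came next.

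Several of these values rested on the 2 libraries lowest in Mki67, with 20 and 31.99 TPM. Without them 10 of the 28 genes were called positive and 1 negative, where 20.1% and 31.3% of all genes were. The r fell from 0.443 to 0.048 for Nup107, from 0.417 to 0.083 for Nup133 and from 0.454 to 0.143 for Nup188. It fell to 0.658 for Nup153, 0.683 for Tpr, 0.538 for Ndc1 and 0.618 for Nup214. Nup37, which was among the 5 highest in the larger part, had r = 0.03 (rho = -0.09, permutation p = 0.885 and 0.588) and a trimmed r of -0.27. Pom121 had r = 0.615 (rho = 0.608, permutation p = 7e-05 and 0.00012) and a trimmed r of 0.552, although it was the lowest in the larger part, and the parts were not compared by a test.

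Nup35 had r = 0.110 and rho = 0.194 in the smaller part (n = 36, permutation p = 0.523 and 0.254, adjusted p = 0.613), which does not show that it is unrelated to Mki67. Without the 5 libraries low in Nup35, r was 0.233 (n = 31, adjusted p = 0.305 by the permutation test), and the differences below were tested with them. Of the 28 genes taken whole, Nup153, Nup155, Nup214, Tpr and Ahctf1 had a higher r by the test of the difference, where 4.82% of all genes did. With Gm4353 added, r was 0.292 and rho 0.176 (permutation p = 0.0840 and 0.300, adjusted p = 0.144), the trimmed r was 0.031, and of the 28 genes Nup153, Nup155, Tpr, Ndc1 and Ahctf1 had a higher r by the test, where 2.71% of all genes did, and Sec13 a lower one. In the lower piece of Nup160 (n = 12, 4.29 to 9.96 TPM) r was 0.810 and rho 0.671 (permutation p = 0.00248 and 0.0204), and in the higher piece (n = 24, 10.4 to 16.99 TPM) r was 0.241 and rho 0.359 (permutation p = 0.259 and 0.0850). The trimmed r were 0.810 and 0.304. The lower piece of Kpna2 (n = 9) had r = -0.06 and the higher (n = 27) 0.306 (permutation p = 0.847 and 0.121). Kpna2 + Gm10184 did not separate in the smaller part. Its r was -0.22 and its rho -0.33 (n = 36, permutation p = 0.197 and 0.0534, adjusted p = 0.285), and the trimmed r was -0.47.

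The genes also moved with one another. Over the 435 pairs of the 30 genes other than Nup35 in the larger part, the median r was 0.785, given as a description over 79 libraries that share their scaling to TPM. It was 0.821 for the 64 pairs within a subcomplex and 0.781 for the others, and the closest pair was the scaffold genes Nup133 and Nup155 (0.979). In the higher piece the median r of Nup35 with the 30 was 0.547, from 0.023 with Pom121 to 0.710 with Nup107, where the pairs of the others had 0.795. In the lower piece it was 0.732, and the others had 0.789. Nup35 + Gm4353 had a median of 0.773 with the 30 in the whole larger part. In the smaller part the pairs of the others had a median of 0.499, Nup35 had -0.01 and the sum had 0.467. Within a subcomplex the median there was 0.457 and for the other pairs 0.508, the opposite order to the larger part. For the pairs of the 30 genes in the larger part, the median was 0.271 after median-of-ratios scaling and 0.512 after rescaling without the 20 most abundant genes. The sum then had 0.252 and 0.372 with the 30. Nup35 had 0.134 and 0.189 in its higher piece, where the others had 0.298 and 0.529. In its lower piece the order turned under median-of-ratios scaling, with 0.351 for Nup35 and 0.153 for the others, and did not after rescaling, with 0.437 and 0.481.

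A further 39 genes of nuclear transport, from a list of other importins, exportins, Ran regulators and mRNA export factors, were read against Mki67 in the same way. In the larger part, where 72.8% of all genes were positive, 34 were called positive, 0 negative and 5 neither, with a median r of 0.596. The highest were Ranbp1, which binds Ran, at 0.891, the exchange factor Rcc1 at 0.881, the mRNA export cofactor Nxt1 at 0.862 and Ran at 0.837. The 5 not called were Kpna1 (0.070), Ipo4 (0.115), Xpot (0.180), Kpna3 (0.199) and Tnpo2 (0.216). The smaller part, with 23.3% of all genes positive and 20.9% negative, had 17 called positive and 1, the tRNA exportin Xpot (-0.38), negative, and the importin Ipo11 had the highest r, 0.932.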

How the data were processed

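Bulk prostate RNA of (TRAMP x WSB) F2 mice was used, 1 library a mouse. The paper's text gives a smaller number of mice without saying which libraries these are, so all that were deposited (79 and 36) were kept. The authors depleted ribosomal RNA, sequenced 126-base read pairs (processed with CASAVA 1.8.2), trimmed 17 bases at the 5′ end and 1 at the 3′ end, used Seqnature to build allele-specific transcripts of both parental strains, aligned reads to these with Bowtie2 2.2.5, and estimated gene levels with RSEM 1.2.20, per the submitters' processing notes and the paper's methods. The annotation they used is not given in the sources used here. The deposited values are TPM, which keep no depth, so no count model or interval was used, and Rn7s1, Rn7s2 and Rn7sk together took 42.8% to 75.6% of the TPM of a library (median 58.1%). How RSEM divided reads between near-identical transcripts cannot be read from the table.

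Members and gene lists were chosen with earlier results of these data known. Gene names, positions and transcripts came from GENCODE M21 on GRCm38, which named 98.8% of the 45699 genes. Analyses used log2(TPM + 1) and the 14623 genes whose mean reached 1 TPM. A level was called separate where 2 normal distributions fitted better than 1 (a fall in BIC above 10, Ashman's D above 2) and each piece held 6 libraries or more. The first principal component (48.7% of the variance) met this with 79 and 36 libraries (fall in BIC of 196, D of 6.10), and Nup35 met it in the larger part (27.9 and 4.54). Pearson's r, differences of r and differences of SD (Pitman-Morgan) were tested with 100000 permutations of the libraries, two-sided, and adjusted by Benjamini-Hochberg over all genes at 0.05. Libraries are separate mice, so p-values measure the spread between mice. Annotated transcripts were searched for near-identical copies with BLAST+ 2.17.0.

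The tests were tried on simulated normal values for 14623 genes over as many libraries as the larger part holds. Only the association test took the means and SDs of that part, and noise was drawn for each gene on its own. Of seeded associations, 88 of 100 at r = 0.5 and 100 of 100 at r = 0.7 were recovered, with 16 others called. Of seeded spreads, 63 of 100 at 1.5 times and 100 of 100 at 2 times were recovered, with 0 others called. Of seeded differences of r, 200 of 200 at 0.65 were recovered, with 1 other called. Differences called for the pore genes in the higher piece were smaller in size, from -0.298 (Nup205) to -0.353 (Nup155). The simulated reference came from 1 normal distribution, while Nup35 separates and the real genes moved together. These rates may therefore not hold for the real data.

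Genes named are Nup35, Mki67, the 3 highest and 3 lowest in mean TPM, the 3 largest and 3 smallest in SD, the 5 highest and 5 lowest in r with Mki67 in the larger part, members at the study's mapped intervals and up to 3 more of each subcomplex. Any other gene was named with its value known. One marker list is not reported here. Alternatives were another pseudocount, 2 rescalings, rank correlation, Top2a or a proliferation index in place of Mki67, limma 3.58.1, other filters and thresholds, other measures of spread and other sets of libraries. The sums with Gm4353 and Gm10184 were added after the data were seen. The software was Python 3.11.15 with scikit-learn 1.9.0, numba 0.67.0, numpy 2.4.6, Biopython 1.88, pandas 2.3.3 and matplotlib 3.10.9.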

Additional observations from a re-analysis of the deposited data

How the results depend on the processing

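Results were recomputed under other settings, and the list of 30 genes is that of the pore and transport genes other than Nup35. Detection (31 genes, where 27.8% of all genes were detected) was 31 at 0.1 TPM and 26 at 5 TPM. The share of all genes at these other levels is not given. The count of genes associated with Mki67 (30) was between 20 and 30 under the settings within the larger part, 15 of 28 in the smaller part, and 10 of 28 there without the 2 libraries farthest in Mki67. The share of all genes called positive was 72.8% in the main setting and 22.3% to 73.9% under the others within the larger part. It was 23.3% in the smaller part and 20.1% there without those 2 libraries. The r of Nup35 with Mki67 in its higher piece (0.564) kept its call, between 0.491 and 0.639 within that piece, except that it was 0.219 with median-of-ratios scaling, 0.266 after rescaling without the 20 largest genes, and, in other libraries, 0.110 in the smaller part and 0.233 there without its 5 libraries low in Nup35. The count of genes with a higher r than Nup35 (8, where 2.55% of all genes were called) was 15 and 13 with these scalings, where 6.17% and 4.4% were. It was 4 with Top2a (2.18% of all genes) and 4 with a proliferation index (1.89%) in place of Mki67, and 3 (1.71%) without 6 libraries of consecutive numbers. In the lower piece it was 0, where 0 of all 14592 genes were called. The cause of these changes was not tested. The count of genes with a smaller spread than Nup35 (29) was 28 or 29 throughout, except that it was 2 after Nup35 was summed with Gm4353. Of all genes, 78.8% were called in the larger part, 52.8% in the smaller part and 13.5% against the sum in the larger part. The sum, the lower piece as an alternative, and the smaller part without its 5 low or its 2 farthest libraries were chosen after seeing the data, as were the larger part without 6 libraries of consecutive numbers and the higher piece without 1 library of low Nup35 share. Leaving out 1 of the 2 libraries with nearly alike numbers left the counts at 30, 8 and 29. No paired analysis was possible because every mouse belongs to 1 group. A library's median gene was shifted by -0.64 to 1.03 (log2) with median-of-ratios scaling and by 0.903 to 2.05 after rescaling. The count behind each TPM is unknown, so no counting error can be given for a level near 0.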
